A study of Mus musculus with 14 samples.

Results

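The genes described here are the inflammatory interleukins and colony stimulating factors *Il6*, *Lif*, *Csf1*, *Csf2*, *Csf3*, *Il1a*, *Il1b*, *Il1rn*, *Il15* and the interleukin-33 receptor gene *Il1rl1*. They were taken by name, as the probes of the mouse whole genome array whose gene name is one of these 10. For 9 of the 10, 14 probes were found among the 41174 non-control probes and 27962 gene names of the array; *Lif* had no probe under its name and is not analysed here under it. The arrays measured RNA of p65-deficient mouse embryonic fibroblasts (*p65*(-/-) NIH 3T3 MEFs) that had received, by lentivirus, myc-tagged wild type p65, the triple mutant KTR (K310/314/315R), the double mutant K314/315R, or the empty vector pTV. In the mutants, lysines that can be acetylated were replaced by arginine. All cells were starved overnight. The wild type, KTR, K314/315R and pTV lines were collected after 3 h with 30 ng/ml TNFα, with 3 arrays per line and 2 for K314/315R, and wild type cells were also collected untreated (0 h, 3 arrays). Each line was a pool of infected cells rather than a clone, and there was no untreated pTV, KTR or K314/315R group. The comparisons ask which of these genes rise with TNFα, which of them differ between cells with and without p65, and whether the acetylation sites matter for them at 3 h.

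p65 (RelA) is the transactivating subunit of the main NF-κB dimer. TNFα frees it from its inhibitor, and it then binds κB sites in the promoters and enhancers of inflammatory genes. Interleukin-6 and LIF signal through the shared receptor subunit gp130, the colony stimulating factors drive the growth and maturation of macrophages (M-CSF, from *Csf1*), of granulocytes and macrophages (GM-CSF, from *Csf2*) and of neutrophils (G-CSF, from *Csf3*), and interleukin-15 sustains natural killer and memory T cells. Interleukin-1α and -1β share a receptor that the antagonist encoded by *Il1rn* occupies without signalling. Fibroblasts are a known source of interleukin-6 and colony stimulating factors in inflamed tissue.

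Promoter sequences were available for 8 of the 10 genes in RefSeq (GRCm38.p6). Those of *Il6*, *Csf1*, *Csf2* and *Il1rn* are printed because these genes stand for the patterns described below: *Il6* and *Csf1* were called both with TNFα and with p65, *Csf2* with TNFα, and *Il1rn* with p65. Each line gives the 250 bases that end just before the annotated start, 5′ to 3′ on the strand of the gene, and capitals mark every match to the core of a κB site, spelled GGG, then any 5 bases, then CC, on either strand (matches can overlap each other).
Il6, chr5:30012864-30013113, plus strand: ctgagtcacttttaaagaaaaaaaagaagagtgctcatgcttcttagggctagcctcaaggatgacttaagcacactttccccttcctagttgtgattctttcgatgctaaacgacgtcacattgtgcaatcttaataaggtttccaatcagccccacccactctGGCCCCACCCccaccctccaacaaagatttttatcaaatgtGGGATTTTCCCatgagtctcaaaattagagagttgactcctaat
Csf1, chr3:107760470-107760719, minus strand: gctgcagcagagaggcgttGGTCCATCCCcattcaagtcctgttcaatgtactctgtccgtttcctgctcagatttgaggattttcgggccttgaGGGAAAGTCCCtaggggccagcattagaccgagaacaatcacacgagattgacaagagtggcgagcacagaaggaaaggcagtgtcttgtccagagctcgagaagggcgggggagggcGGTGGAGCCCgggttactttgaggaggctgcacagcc
Csf2, chr11:54249900-54250149, minus strand: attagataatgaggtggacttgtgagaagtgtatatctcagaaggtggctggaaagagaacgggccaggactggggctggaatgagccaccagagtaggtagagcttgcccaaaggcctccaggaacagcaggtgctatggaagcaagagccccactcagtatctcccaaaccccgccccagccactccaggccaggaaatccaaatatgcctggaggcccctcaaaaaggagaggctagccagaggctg
Il1rn, chr2:24336610-24336859, plus strand: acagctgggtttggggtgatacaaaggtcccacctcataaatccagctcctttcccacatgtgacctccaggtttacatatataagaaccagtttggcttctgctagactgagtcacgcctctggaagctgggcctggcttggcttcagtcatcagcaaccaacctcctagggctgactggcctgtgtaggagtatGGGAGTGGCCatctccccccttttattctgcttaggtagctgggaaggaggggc
In *Il6* the match GGGATTTTCC lies 44 to 35 bases before the start, and in *Csf1* the match GGGACTTTCC lies 154 to 145 bases before it, on the opposite strand. Both also fit the stricter NF-κB consensus, which 7.25% of the 32851 promoter stretches of the same length hold, whereas the bare core is in 45.8% of them. Among the 8 genes, 3 held the consensus (*Il6*, *Lif* and *Csf1*) and 4 the core (*Il1rn* in addition). No match to the core was found in the stretch of *Csf2* or in either annotated start of *Il1rl1*, and this says only that these letters are not in these 250 bases. AP-1 sites, spelled TGANTCA, were in 4 of the 8 genes (*Il6*, *Lif*, *Il1a* and *Il1rn*) and in 6.75% of all promoter stretches. A TATAAA on the strand of the gene was in *Il1a* and *Il1b* and in 7.59% of all. *Csf3* and *Il15* have no entry.

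The 75th percentile of the probe signals ran from 967 to 1442 intensity units over the 14 arrays, and 49.9% to 57.7% of the spots were well above background. Of the 4 slides, the first 3 carried 1 array each from wild type 3 h, KTR, pTV and wild type 0 h. K314/315R had both its arrays alone on the last slide, and per the file headers these were read with a later release of the Feature Extraction software than the other 12, so that its line, its slide and the software release cannot be told apart. *Rela*, the mouse gene for p65, was read on every array, and its brighter probe lay between 0.79 and 1.87 on the scale explained next (for wild type 1.52 to 1.54 at 3 h and 0.97 to 1.04 at 0 h, for KTR 0.79 to 1.54, for K314/315R 1.54 to 1.87 and for pTV 0.997 to 1.34). Whether the probe lies in the deleted part of the gene, and whether it reads the introduced p65, is not known here, so this level does not check the labels. All 10 fibroblast markers examined (among them *Col1a1*, *Col1a2*, *Vim* and *Pdgfrb*) were well above background on every array, and their summed level spanned 9.38 to 9.86 over all arrays, with 9.44 to 9.67 in wild type and 9.42 to 9.77 in pTV at 3 h. Of 12 macrophage and leukocyte markers, *Ptprc*, *Emr1*, *Itgam*, *Fcgr1*, *Aif1* and *Tyrobp* were well above background on no array. The summed level of those 12 was -1.17 to -0.80 in wild type and -1.59 to -0.88 in pTV at 3 h, -1.26 to -0.999 in KTR, -1.17 to -1.06 in K314/315R and -1.24 to -1.12 in wild type at 0 h.

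Levels are given as log2 signal, the log2 of a probe's background-corrected intensity minus that of the 75th percentile of its array, so that 0 is a probe as bright as the 75th percentile. One unit is a doubling. A gene is represented by its brightest probe, and levels are compared between groups for 1 probe, never between probes. Differences are log2 fold changes from 1 limma fit of all 14 arrays, with their standard error (SE) and a p adjusted by the Benjamini-Hochberg method over all tested probes. A gene was called at an adjusted p under 0.05 and a fold over 2 for wild type over pTV, or over 1.8 for the other comparisons. Of the 9 genes with a probe, 7 were bright enough to be tested. *Il1a* and *Il1b* were not. In RNA from whole cultures, fewer cells that express a gene and less RNA per cell cannot be told apart.

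With TNFα, 5 of the 7 genes were called higher in wild type cells (*Il6*, *Csf1*, *Csf2*, *Csf3* and *Il15*) and none lower, against 1.26% of all tested genes called higher and 0.477% called lower. The median log2 fold change of the 7 was 1.097, beside -0.05 over all tested genes. Without p65 the picture at 3 h was again one of lower levels: in wild type over pTV, 5 of 7 were called higher with p65 (*Il6*, *Csf1*, *Csf3*, *Il15* and *Il1rn*), against 4.04% of all tested genes, and none lower, against 1.61%. The median there was 2.46, or 2.32 with *Csf3* at its lower bound, beside -0.02 over all tested genes. The 2 sets of 5 share 4 genes, *Csf2* being called only for TNFα and *Il1rn* only for p65. The comparisons share the wild type arrays at 3 h. Wild type and pTV were each a pool of infected cells, so a call with p65 is a difference between 2 pools. Whether other differences between the pools add to it was not tested. *Csf3* passed the filter on dim probes only through the groups in which it was high, so that its place in both counts follows in part from the filter, and without it each count is 4 of 6. With another background correction (normexp), *Il6* and *Csf2* remained called with TNFα and *Il6*, *Csf1* and *Il15* with p65.

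**Figure D1:**
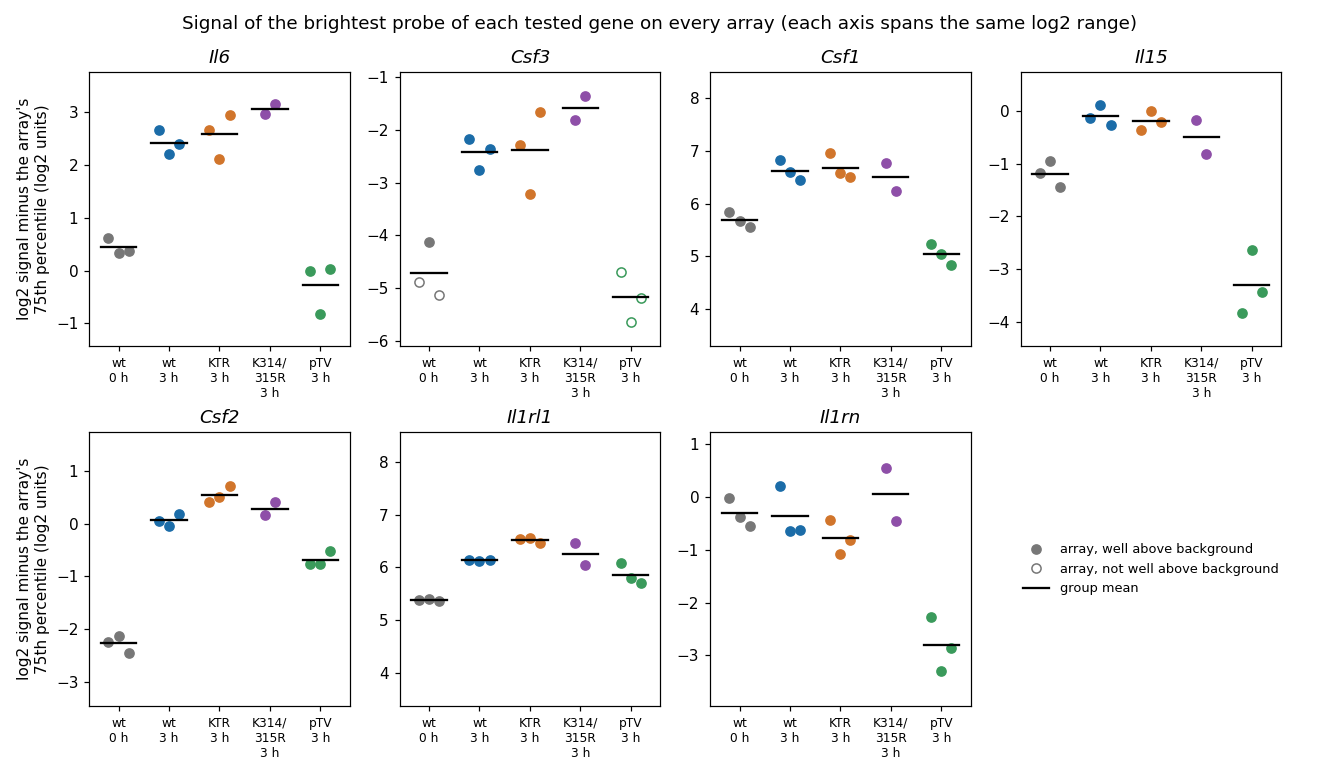
Log2 signal (array's 75th percentile = 0) of the brightest probe of the 7 tested genes on each of the 14 arrays, by group; filled points are well above background, open points are not, and black lines are group means. In *Il6*, *Csf3*, *Csf1* and *Il15* the 3 lines with p65 at 3 h lie above wild type at 0 h and above pTV; in *Csf2* and *Il1rl1* wild type at 0 h is the lowest group, and in *Il1rn* pTV alone is low.

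*Il6* encodes interleukin-6, a secreted driver of the acute phase response. Its log2 signal was 0.62, 0.34 and 0.36 in untreated wild type cells and 2.67, 2.22 and 2.39 after TNFα. It was 2.67, 2.12 and 2.95 in KTR and 2.96 and 3.16 in K314/315R. In pTV it was -0.02, -0.82 and 0.03. Every array with p65 and TNFα was above every array of the other groups, and pTV with TNFα lay below untreated wild type with no overlap. TNFα raised *Il6* by 1.98 (SE 0.25, adjusted p = 0.000723), which is 3.95-fold, and the difference was 2.05, 1.88 and 2.03 within the 3 slides. Wild type exceeded pTV by 2.69 (SE 0.25, adjusted p = 9.82e-06), which is 6.47-fold, with 2.36 to 3.04 within slides. The step from untreated wild type down to pTV, 0.71, did not pass the test (adjusted p = 0.0553); with the replicate number as a block, which pairs these arrays, its adjusted p was 0.0185, and its fold was under the limit in both fits.

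*Csf3* encodes G-CSF and was the 1 tested gene that did not rise above background everywhere. All 8 arrays of the lines with p65 at 3 h measured it well above background, as did 1 of 3 untreated wild type arrays and none of pTV. Its log2 signal was -2.16, -2.76 and -2.36 in TNFα-treated wild type cells, -2.29, -3.21 and -1.66 in KTR, and -1.81 and -1.35 in K314/315R. Untreated wild type read -4.89, -4.12 and -5.14, and pTV read -4.69, -5.65 and -5.18. The 8 arrays with p65 and TNFα did not overlap the other 6, which overlapped each other. TNFα raised it by 2.29 (SE 0.38, adjusted p = 0.00506), a value set in part by the 2 untreated arrays on which it was not well above background, and 1.36 to 2.78 within slides. As pTV gave only a bound, relative to that line *Csf3* was at least 4.99-fold higher in wild type cells (adjusted p = 0.000338), at least 5.15-fold higher in KTR (adjusted p = 0.000346) and at least 8.99-fold higher in K314/315R (adjusted p = 0.000104). Such a bound sets the mean of the brighter group against a floor on each dim array, which is the lowest signal well above background there or, if higher, the signal of the probe.

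*Csf1* encodes M-CSF. It read 5.84, 5.67 and 5.56 in untreated wild type, and 6.82, 6.59 and 6.45 after TNFα. In KTR it was 6.96, 6.59 and 6.51, in K314/315R 6.77 and 6.25, and in pTV 5.23, 5.05 and 4.84. The lines with p65 and TNFα were highest, untreated wild type was in between and pTV lowest, with no overlap between these levels. The rise with TNFα was 0.93 (SE 0.17, adjusted p = 0.00893), or 1.90-fold, with 0.88 to 0.98 within slides. It stood close to the fold limit: without the first wild type array at 3 h it was 0.83, under the limit, and the count of genes called with TNFα was 3 instead of 5. Wild type was 2.99-fold above pTV (log2 fold change 1.58, SE 0.17, adjusted p = 4.05e-05), and pTV with TNFα was below untreated wild type by 0.65 (adjusted p = 0.0158), a fold of 1.57 that is under the limit.

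*Il15* encodes interleukin-15. On its brightest probe it read -1.18, -0.95 and -1.45 in untreated wild type, and -0.14, 0.12 and -0.26 after TNFα. KTR gave -0.37, 0.01 and -0.22, K314/315R gave -0.17 and -0.81, and pTV gave -3.83, -2.63 and -3.44. Here pTV was far below every other array, untreated wild type included. Wild type exceeded pTV by 3.21 (SE 0.27, adjusted p = 5.49e-06), or 9.24-fold, and pTV was 4.32-fold below untreated wild type (adjusted p = 0.000166). The rise with TNFα was 1.097 (SE 0.27, adjusted p = 0.0408), with 1.04 to 1.19 within slides, and this call depended on single arrays: its adjusted p was 0.0513 to 0.159 when any one of 8 arrays was left out (each wild type array at 3 h or 0 h, KTR replicate 1 or pTV replicate 3).

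A second, dimmer *Il15* probe (designed to AB022307, against NM_008357 for the brighter one) gave smaller differences. It was 1.11 higher in wild type than in pTV (SE 0.23, adjusted p = 0.00612), its rise with TNFα of 0.66 did not pass the test (95% interval 0.15 to 1.16, adjusted p = 0.156), and pTV and untreated wild type overlapped (difference -0.46, adjusted p = 0.186). The rise with TNFα ran the same way on both probes, with 0.62 to 0.68 within slides on the dimmer one and no overlap between its treated and untreated wild type arrays.

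**Figure D2:**
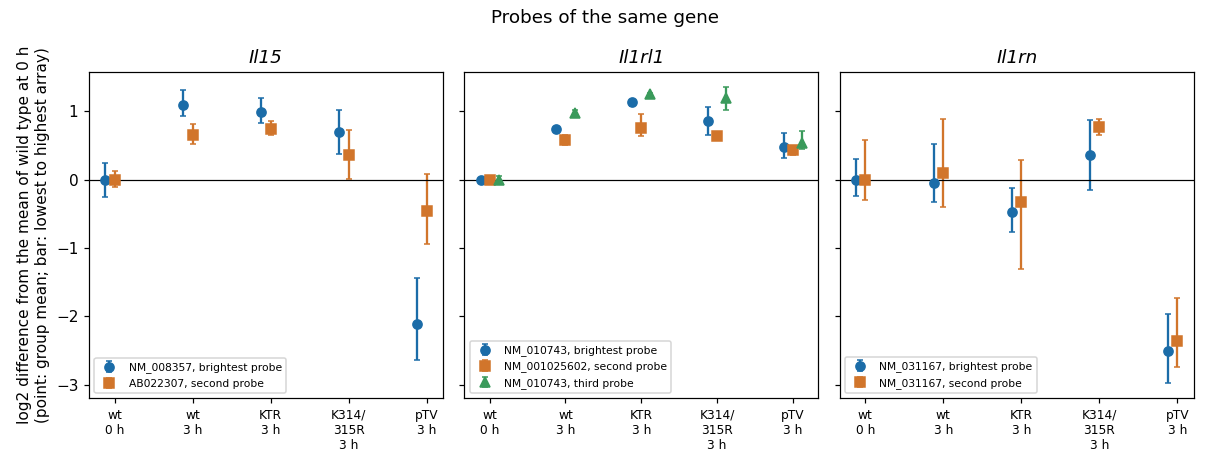
Group means of each probe of *Il15*, *Il1rl1* and *Il1rn*, as the log2 difference from wild type at 0 h, with bars from the lowest to the highest array of a group. The *Il15* probes differ in how far pTV lies below wild type at 0 h (-2.11 against -0.46), though pTV has the lowest mean on both. The *Il1rl1* probes keep the same order of pTV and wild type, and pTV has the lowest mean on both *Il1rn* probes.

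*Csf2* encodes GM-CSF and showed the smallest adjusted p of the 7 genes for TNFα. It read -2.24, -2.13 and -2.45 in untreated wild type and 0.05, -0.04 and 0.19 after TNFα. KTR gave 0.41, 0.49 and 0.72, K314/315R gave 0.16 and 0.41, and pTV gave -0.77, -0.77 and -0.51. Untreated wild type was the lowest group by a wide margin, and pTV lay between it and the lines with p65. TNFα raised *Csf2* by 2.34 (SE 0.13, adjusted p = 1.71e-06), or 5.06-fold, and by 2.09 to 2.64 within slides. Wild type was 1.68-fold above pTV (log2 fold change 0.75, SE 0.13, adjusted p = 0.00138), which passed the p but not the fold limit. In a comparison chosen after these values were seen, pTV with TNFα was 3.01-fold above untreated wild type (log2 fold change 1.59, SE 0.13, adjusted p = 3.65e-06). That comparison changes the line and the treatment at once, and the 2 cannot be told apart in it.

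*Il1rl1* encodes the interleukin-33 receptor ST2, which exists as a membrane receptor and as a soluble decoy. Its brightest probe read 5.39, 5.40 and 5.37 in untreated wild type and 6.14, 6.13 and 6.14 after TNFα. KTR gave 6.54, 6.56 and 6.46, K314/315R gave 6.46 and 6.05, and pTV gave 6.08, 5.80 and 5.71. The order of the groups was that of *Csf2*, with untreated wild type lowest and pTV next. The rise with TNFα was 0.75 (SE 0.12, adjusted p = 0.00311), a fold of 1.68 under the limit. A second probe to the same transcript (NM_010743) rose by 0.98 (SE 0.10, adjusted p = 0.000254) and was called, and the probe to NM_001025602 rose by 0.58 (SE 0.10, adjusted p = 0.00497). Wild type over pTV was 0.27 (adjusted p = 0.155) on the brightest probe, and 0.45 (adjusted p = 0.012) and 0.15 (adjusted p = 0.393) on the others, none past the fold limit. pTV exceeded untreated wild type by 0.48 (adjusted p = 0.0114), which was also under the limit.

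*Il1rn* encodes the interleukin-1 receptor antagonist. It read -0.01, -0.37 and -0.54 in untreated wild type and 0.21, -0.64 and -0.63 after TNFα. KTR gave -0.43, -1.08 and -0.82, K314/315R gave 0.56 and -0.45, and pTV gave -2.28, -3.29 and -2.87. All groups with p65 overlapped, treated or not, and pTV lay below each of them. Wild type exceeded pTV by 2.46 (SE 0.33, adjusted p = 0.000259), or 5.50-fold, with 2.24 to 2.65 within slides, and pTV was 5.67-fold below untreated wild type (adjusted p = 0.000205). The difference with TNFα was -0.05 (95% interval -0.77 to 0.68, adjusted p = 0.973), an interval that leaves room for a change of either sign. A dimmer probe to the same transcript, which no pTV array measured above background, was at least 2.32-fold higher with wild type p65 than with the empty vector (adjusted p = 0.00279).

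*Il1a* and *Il1b*, the interleukin-1 agonists, were near or under background. The *Il1a* probes were well above background on 2 and 3 of the 14 arrays, all of them lines with p65 at 3 h. The brighter read -4.43, -4.79 and -4.61 in treated wild type cells, -4.27, -4.60 and -4.48 in KTR, -3.96 and -4.59 in K314/315R, -6.65, -6.42 and -6.75 in pTV and -6.57, -6.55 and -6.14 in untreated wild type. The 8 arrays with p65 and TNFα were the brightest 8, but for most of them the probe gives only a bound, and no fold is given. *Il1b* was not well above background on any array, with log2 signals from -7.10 to -4.82. An unnamed cDNA probe (AK019683), whose description in part of the files mentions leukemia inhibitory factor, was not counted as *Lif*. It averaged -2.84 in treated and -2.67 in untreated wild type cells, -2.68 in KTR, -3.69 in K314/315R and -2.67 in pTV.

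**Figure D3:**
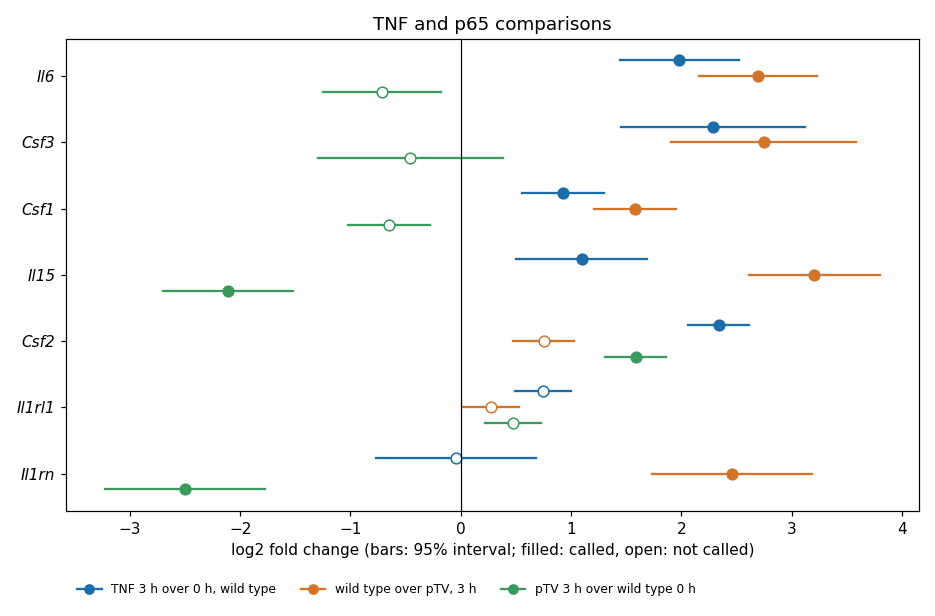
Log2 fold change with its 95% interval for the 7 tested genes in TNFα 3 h over 0 h (wild type), wild type over pTV at 3 h and pTV at 3 h over wild type at 0 h; filled points were called. *Il6*, *Csf3*, *Csf1* and *Il15* are called in both of the first comparisons, *Csf2* for TNFα and for pTV over untreated wild type, and *Il1rn* for p65 and for pTV over untreated wild type.

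In pTV at 3 h over untreated wild type, the comparison chosen after the values were seen, *Csf2* was called higher, against 2.61% of all tested genes, and *Il15* and *Il1rn* lower, against 5.45%. With normexp neither lower call remained (*Il15* -1.24, adjusted p = 0.144; *Il1rn* -1.52, adjusted p = 0.0538). Ordered by group mean, *Il6*, *Csf1*, *Csf3* and *Il15* ran from the 3 lines with p65 and TNFα, through untreated wild type, to pTV. For *Csf3* the last step was within the spread of the arrays (adjusted p = 0.441). For *Il6* it had an adjusted p of 0.0553, or 0.0185 with the replicate block. In *Csf1* and *Il15* it passed the p in both fits, but on the dimmer *Il15* probe it did not pass (adjusted p = 0.186, without the block). In *Csf2* and *Il1rl1* the last 2 places were exchanged, and the step between them had an adjusted p under 0.05 in both.

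Replacing the acetylation sites left no call among these genes. In KTR over wild type at 3 h, 0 of 7 genes were called in either direction by limma, against 0.0336% of all tested genes called higher and 0.188% lower, and 2 of 7 had an unadjusted p under 0.05 (*Csf2* and *Il1rl1*). The median log2 fold change was 0.07, beside 0.06 over all tested genes. In K314/315R over wild type, 0 of 7 were called, against 0.188% higher and 0.975% lower, with 1 unadjusted p under 0.05 (*Il6*). The median was 0.22, beside 0.03. The percentages are shares of all tested genes that were called, and no such share is given for an unadjusted p under 0.05. A p that misses the threshold does not show equal levels, and the intervals state how far apart the lines could be.

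*Csf2* was 0.47 higher in KTR than in wild type (95% interval 0.20 to 0.75, adjusted p = 0.213), and *Il1rl1* 0.38 higher (0.13 to 0.64, adjusted p = 0.284). In both genes the 3 KTR arrays were above the 3 wild type arrays, and the difference within the slides was 0.36 to 0.53 and 0.32 to 0.43. *Il6* was 0.63 higher in K314/315R than in wild type (0.04 to 1.23, adjusted p = 0.257) and *Csf3* 0.85 higher (-0.09 to 1.78, adjusted p = 0.342). There too the groups did not overlap, with the slide of K314/315R being a different one. The share of all tested genes whose groups separate in this way is not given, so separation by itself does not show a mutant effect. *Csf3* was 1.801-fold higher in K314/315R, past the limit of 1.8, and its adjusted p kept it from being called. The paper, by its own analysis and p-value, lists *Csf3* as higher in K314/315R than in wild type. The other intervals for KTR were -0.38 to 0.69 in *Il6*, -0.31 to 0.44 in *Csf1*, -0.79 to 0.88 in *Csf3*, -0.69 to 0.49 in *Il15* and -1.15 to 0.30 in *Il1rn*. For K314/315R they were -0.53 to 0.31 in *Csf1*, -0.09 to 0.52 in *Csf2*, -1.06 to 0.27 in *Il15*, -0.40 to 1.22 in *Il1rn* and -0.17 to 0.40 in *Il1rl1*. The narrowest were those of *Il1rl1* and *Csf2* and the widest those of *Csf3* and *Il1rn*. All these intervals come from the fit without the replicate block. *Il1rn* was lower in KTR than in wild type within each of the 3 slides (-0.64, -0.44 and -0.19). With the block its difference was -0.42 (SE 0.13, adjusted p = 0.178), which was not called.

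**Figure D4:**
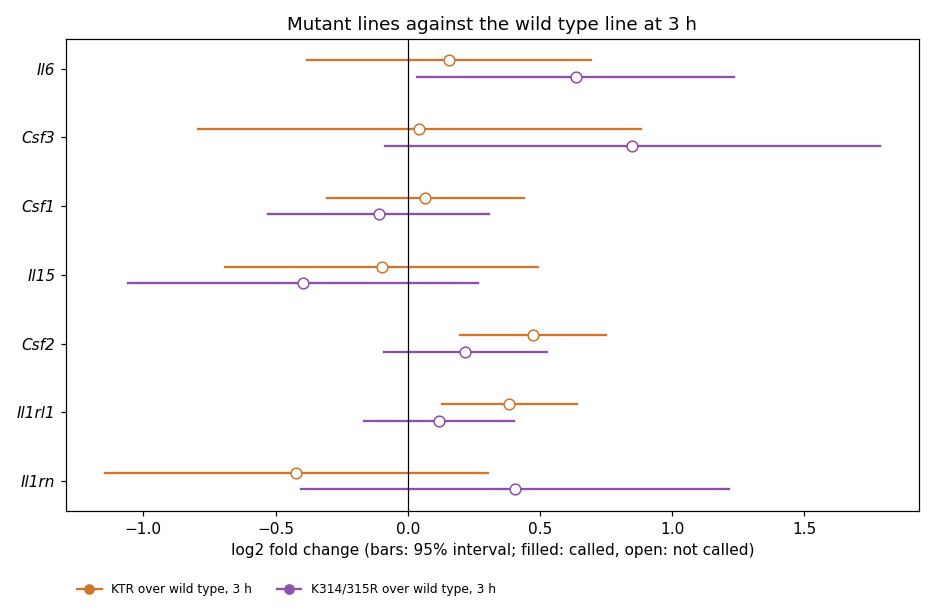
Log2 fold change with its 95% interval of KTR and of K314/315R over wild type at 3 h for the 7 tested genes; all points are open, as none was called. The intervals of *Csf2* and *Il1rl1* for KTR and of *Il6* for K314/315R lie above 0 before adjustment for the number of probes.

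Against the empty vector both mutants gave the same 6 calls: *Il6*, *Csf1*, *Csf2*, *Csf3*, *Il15* and *Il1rn* were higher in KTR than in pTV, against 4.63% of all tested genes, and in K314/315R than in pTV, against 5.76%. None was called lower, against 2.03% and 5.72%. These comparisons share the pTV arrays with wild type over pTV. Here too *Csf3* passed the filter on dim probes only through the groups in which it was high. Its place in both counts thus follows in part from the filter. *Il6* was 7.21-fold above pTV in KTR and 10.05-fold in K314/315R. *Csf2* was 2.34-fold (adjusted p = 3.5e-05) and 1.96-fold (adjusted p = 0.000451) above pTV, past the limit of 1.8 that applies to the mutants, whereas the limit for wild type over pTV was 2. Without the second K314/315R array its difference from pTV was 0.84, under the limit. *Il1rn* was 4.10-fold and 7.29-fold above pTV, and *Il15* 8.63-fold and 7.02-fold. On its dimmer probe *Il15* was 2.29-fold above pTV in KTR (adjusted p = 0.00408). In K314/315R that probe was 1.77-fold above pTV (adjusted p = 0.0354), under the limit and with overlapping groups. With normexp background correction 4 of the 6 calls remained in each mutant, and they were not the same 4: KTR over pTV lost *Csf3* (0.69, adjusted p = 0.852) and *Il1rn* (1.15, adjusted p = 0.216), and K314/315R over pTV lost *Csf2* (0.80, under the fold limit) and *Csf3* (1.39, adjusted p = 0.519).

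The receptors and signalling proteins that these cytokines act through were examined as a list of 22 genes, 18 of them tested. With TNFα, 1 was called higher, beside 1.26% of all tested genes: *Il15ra*, the high affinity chain that presents interleukin-15, by 1.52 (SE 0.17, adjusted p = 0.000336). In wild type over pTV, 5 of 18 were higher and none lower, beside 4.04% and 1.61% of all tested genes, with a median log2 fold change of 0.26 beside -0.02 over all. These were *Il15ra* (1.23, adjusted p = 0.00029), *Il2rg*, the common γ chain used by interleukin-15 (1.46, adjusted p = 3.48e-05), *Il6st*, which encodes gp130 (1.34, adjusted p = 0.00029), *Myd88*, the adaptor of the interleukin-1 receptor family (1.12, adjusted p = 0.000441), and *Irak3*, a negative regulator of that pathway (at least 2.83-fold, adjusted p = 0.000977). The remaining chain of the interleukin-15 receptor, encoded by *Il2rb*, was well above background on 1 of 3 arrays in each group and was not called (0.08, adjusted p = 0.93).

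*Il15ra* was -1.27 to -1.19 in wild type and -1.10 to -1.02 in KTR after TNFα, -1.63 to -1.08 in K314/315R, -2.69 to -2.13 in pTV and -2.99 to -2.61 in untreated wild type, so that pTV overlapped untreated wild type. *Il6st* was 3.39 to 3.64 in untreated wild type and 3.54 to 3.99 after TNFα, groups that overlapped, and 2.18 to 2.67 in pTV. *Il2rg* was the 1 gene of the list called in a mutant over wild type. It was 1.05 lower in K314/315R (SE 0.17, adjusted p = 0.0192), with -4.26 to -4.16 against -3.47 to -2.95. Of all tested genes 0.975% were called lower there, and the slide of K314/315R was a different one. In KTR over wild type none of the 18 was called. Over pTV, 5 were called higher and 1 lower in each mutant. *Il15ra*, *Il6st*, *Irak3* and *Myd88* were higher in both. In KTR *Il2rg* was also higher and *Sigirr* lower, and in K314/315R *Lifr* was higher and *Csf2rb1* lower. The shares of all tested genes were 4.63% higher and 2.03% lower for KTR, and 5.76% and 5.72% for K314/315R.

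Of 39 other interleukins and related cytokines, 13 were tested and 17 were well above background on no array. *Tslp*, which encodes thymic stromal lymphopoietin, was called higher with TNFα (1.88, SE 0.18, adjusted p = 0.000134), and with p65 (2.01, SE 0.18, adjusted p = 9.21e-06). In wild type over pTV *Kitl*, the gene of stem cell factor, was also higher (1.35, adjusted p = 0.000746), and 2 genes of the interleukin-6 family were lower, *Il11* (-2.09, SE 0.20, adjusted p = 1.32e-05) and *Clcf1* (-1.04, adjusted p = 0.00142). *Il11* was 0.69 to 1.42 in pTV and between -1.24 and -0.42 on every other array, and its difference with TNFα was 0.16 (adjusted p = 0.778). In both mutants over pTV the same 4 genes were called in the same directions, beside 4.63% higher and 2.03% lower of all tested genes for KTR and 5.76% and 5.72% for K314/315R. None of the 13 was called in either mutant over wild type, where 0.0336% to 0.975% of all tested genes were called in 1 direction.

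**Figure D5:**
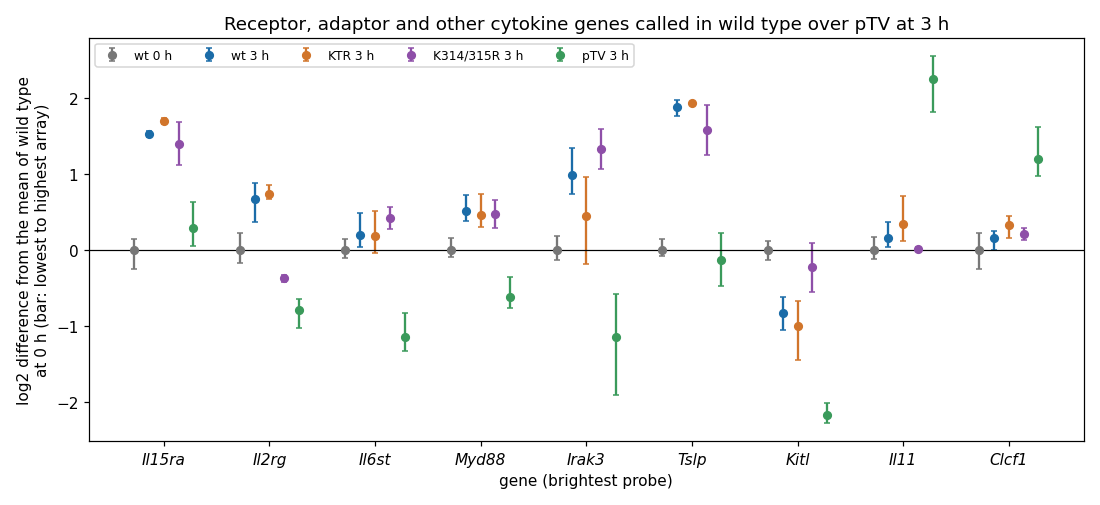
Receptor, adaptor and other cytokine genes called in wild type over pTV at 3 h, as log2 difference from the mean of wild type at 0 h (points are group means, bars run from the lowest to the highest array). *Il15ra* and *Tslp* are raised in the 3 lines with p65 at 3 h, *Il6st* is low in pTV alone, and *Il11* and *Clcf1* are high in pTV alone.

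Among the markers of cell type, *Pdgfra* and *Pdgfrb* were higher (1.77 and 1.99) and *Thy1* lower (-1.19) in wild type than in pTV, and of the 3 tested macrophage and leukocyte markers *Coro1a* was higher (1.39, adjusted p = 1.39e-05); their part in the differences above was not tested. With TNFα none of these markers was called.

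Over the 14 arrays, the 2 other genes whose pattern was most like that of *Il6* were *Gch1* (Pearson's r 0.99) and *Bcor* (0.98). For *Csf3* they were 5430433G21Rik (0.98) and *St3gal1* (0.97), for *Il15* *Ces1* (0.98) and *Cbx7* (0.98), and for *Il1rn* *Lgals9* (0.98) and *Slc45a4* (0.97). Among the members, *Il6* ran closest to *Csf3* (0.98) and *Csf2* to *Il1rl1* (0.92), while *Csf2* and *Il1rn* were hardly related (0.04). These coefficients describe 5 groups of arrays that share the same differences, and they carry no test.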

How the data were processed

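RNA of 14 cultures was labelled with Cy3 and read on 4 slides of one-colour Agilent whole mouse genome arrays. The authors deposited the Feature Extraction output (9.1 per the labels), in which each spot has an intensity already corrected for background but not scaled between arrays, and a table of normalized intensities, found to equal the probe means times 1 factor per array (0.837 to 1.20, within 1% for at least 99.7% of probes). Here spots flagged as non-uniform or outliers (1 to 326 per array) were dropped, spots of a probe averaged, and log2 values centred on each array's 75th percentile. A probe entered the test if all arrays of 1 group or more measured it well above background (22179 of 41174; the number of arrays limits the precision). limma 3.58.1 in R 4.3.3 fitted all 14 arrays together, two-sided, with Benjamini-Hochberg adjustment, after the code was tested on simulated data. RNA was isolated on different days, and p-values measure the spread between these cultures.

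Replicate numbers coincide with slides 1 to 3. Deviations from the group means correlated at 0.31 to 0.61 in 18 same-numbered pairs of the 4 groups on those slides and at -0.51 to 0.10 in the other 36, so the numbers pair these arrays; with K314/315R, 8 same-numbered pairs gave -0.10 to 0.41.

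The genes and lists were chosen with earlier results of these data known. All 10 genes were to be named, list genes only where called in at least 1 comparison, and, for the 4 genes with the widest group means, the 2 most similar other genes. Alternatives covered normalization, background correction, the filter on dim probes, flagged spots, slide and replicate blocks, the arrays fitted, the deposited normalized table and leaving out each array.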

Additional observations from a re-analysis of the deposited data

How the results depend on the processing

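The 25 called fold changes were recomputed 596 times in all over the alternatives: 574 values kept their call, 22 lost it and none changed sign. Quantile normalization, slide blocks, fits of the compared groups alone and flagged spots kept all these calls. So did a filter for probes bright on all arrays, which leaves out *Csf3*. The unadjusted p kept them by construction, since an adjusted p under 0.05 implies an unadjusted p under 0.05. Its values among the 574 therefore test nothing. In the fit with a replicate block, which pairs arrays by number, the calls among the 7 genes stayed at 5 for TNFα, 5 for wild type over pTV, 0 for each mutant over wild type and 6 for each mutant over pTV, and the block changed no other call of these genes.

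With normexp background correction, 2 genes were called with TNFα (*Il6* and *Csf2*), 3 in wild type over pTV (*Il6*, *Csf1* and *Il15*) 4 in each mutant over pTV and 0 lower in pTV over untreated wild type; the cause was not tested. With no filter on dim probes, 1 gene was called higher in KTR over wild type, *Il1b*, which was well above background on no array. *Il15* lost its call for TNFα (adjusted p = 0.11). The brighter *Il1a* probe, well above background on 2 of 14 arrays, passed both limits with TNFα (adjusted p = 0.000876). It also passed them in wild type (5.04e-05), KTR (4.01e-05) and K314/315R (5.14e-05) over pTV. Leaving out each array in turn gave 3 to 5 calls for TNFα, 5 to 5 for wild type over pTV and 5 to 6 for K314/315R over pTV.

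Of 573 values of the 24 uncalled fold changes, 17 changed sign. With normexp these were *Csf3* in KTR over wild type (-0.38), *Csf1* in K314/315R over wild type (0.17) and *Csf3* in pTV over untreated wild type (0.64), and with the deposited normalized table *Csf3* in KTR over wild type (-9e-04). With an array left out, values ran from -0.33 to 0.10 for *Il1rn* with TNFα. In KTR over wild type they ran from -0.32 to 0.45 for *Csf3*, from -0.0709 to 0.17 for *Csf1*, from -0.20 to 0.0061 for *Il15* and from -0.0295 to 0.38 for *Il6*, and in K314/315R over wild type from -0.0996 to 0.91 for *Il1rn*, from -0.0888 to 0.32 for *Il1rl1* and from -0.37 to 0.15 for *Csf1*. *Il6* in pTV over untreated wild type was called without pTV replicate 3 (-0.86, adjusted p = 0.0445).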
